A study of Mus musculus with 18 samples.

Results

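The strands of the neighbouring miR-212 and miR-132 hairpins and the 5p strand of miR-188, a group of miRNAs known for their response to neuronal activity, were followed through small-RNA libraries of mouse cerebellum and hippocampus. The group was set by name and holds 5 of the 1841 miRNA strands in the deposited tables: mmu-miR-132-3p, mmu-miR-132-5p, mmu-miR-212-3p, mmu-miR-212-5p and mmu-miR-188-5p. All 5 were present in the tables and passed the low-count filter of every comparison. The 18 libraries form 6 groups of 3 biological replicates, all from male C57BL/6J mice of 1 month. CyrKO hippocampus and CyrKO cerebellum came from Cyrano-/- mice, which lack the long noncoding RNA Cyrano. In Cdr1as671 cerebellum the circular RNA Cdr1as had lost 18 nt at its site for miR-671, and CyrKOCdr1as671 cerebellum carried that deletion together with the loss of Cyrano. WT hippocampus and WT cerebellum were the controls of their tissues. Whole tissue was sequenced, so the cell type behind a level is not resolved, and a smaller share of the cells that make a miRNA cannot be told apart from less of it per cell.

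The locus of miR-212 and miR-132 is transcribed as a tandem primary transcript, and in neurons its transcription is induced through the transcription factor CREB by synaptic activity and by neurotrophins such as BDNF. The 3p strands of both hairpins act as guide strands in Argonaute and share a seed, the stretch that pairs with target mRNAs. miR-132-3p is known to promote dendrite growth and spine maturation. miR-188-5p comes from an unrelated locus on the X chromosome and is known from rat hippocampal neurons, where it targets neuropilin-2 and limits its effect on spines. In the study, Cyrano is an RNA that directs decay of miR-7, and Cdr1as is a circular RNA rich in miR-7 sites that miR-671 can slice. None of the 5 strands belongs to those miRNA families, so the mutant comparisons ask whether activity-regulated miRNAs moved when that network was disturbed.

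The mature sequences, from RefSeq on GRCm38.p6, are shown 5′ to 3′ with the seed, bases 2 to 8, in capitals, because they show which strands can address the same targets.
mmu-miR-132-3p: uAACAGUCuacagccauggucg
mmu-miR-212-3p: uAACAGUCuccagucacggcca
mmu-miR-132-5p: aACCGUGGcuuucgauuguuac
mmu-miR-212-5p: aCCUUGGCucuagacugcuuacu
mmu-miR-188-5p: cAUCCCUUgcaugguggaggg
miR-132-3p and miR-212-3p shared the seed AACAGUC, and no other mature miRNA in the RefSeq table carried it. Along their length they were identical at 17 of 22 positions, counted from the 5′ end, and all 5 substitutions from miR-132-3p to miR-212-3p (A10C, C14U, U17C, U20C and G22A) lay outside the seed. The 5p strands of the same hairpins had different seeds and matched at 9 of 22 positions. miR-188-5p shared its seed with mmu-miR-7061-3p and with none of the other members.

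The hairpins are shown with the 5p and 3p strands in capitals, so that the order of the strands can be read.
Mir212: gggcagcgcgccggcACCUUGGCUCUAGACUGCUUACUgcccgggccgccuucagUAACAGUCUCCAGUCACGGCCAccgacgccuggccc
Mir132: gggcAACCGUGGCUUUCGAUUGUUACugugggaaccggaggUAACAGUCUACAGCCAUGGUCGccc
Mir188: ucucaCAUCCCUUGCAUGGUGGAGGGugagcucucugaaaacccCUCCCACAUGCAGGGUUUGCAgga
On GRCm38.p6, Mir212 lies at chr11:75173388-75173478 and Mir132 at chr11:75173682-75173747, both on the plus strand with 203 bases between them. In the GENCODE annotation both lie in an intron of the noncoding transcript 1700016P03Rik, which begins upstream of Mir212. Mir188 lies at chrX:7247989-7248056 on the minus strand, in an intron of the chloride channel gene Clcn5, with 345 bases between it and Mir532. The build behind the deposited counts is not given in the sources used here, so these positions describe the loci and were not used in counting.

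The libraries held 8591172 to 15305829 reads assigned to miRNAs, and levels are given as CPM, a strand's reads scaled to the total miRNA reads of its library. The scarcest member in any library was miR-132-5p with 503 reads. Tissue labels were set beside miRNAs known to differ between the regions. The lists here were chosen with earlier results of these data known, so these markers are no independent check of the labels. The 4 hippocampal markers (miR-221-3p, miR-222-3p, miR-138-5p and miR-218-5p) summed to 45753 to 51563 CPM in hippocampus and 10689 to 14296 CPM in cerebellum. The 2 cerebellar markers matched by name, miR-206-3p and miR-195a-5p, summed to 2022 to 2384 CPM in hippocampus and 10409 to 13200.0 CPM in cerebellum. Erythroid miRNAs (miR-144-3p, miR-144-5p and miR-451a) stood apart in Cdr1as671 libraries 1 and 2, at 783 and 603 CPM, against 16205 CPM in Cdr1as671 library 3 and 6326 to 32949 CPM in WT cerebellum. Their part in the results on Cdr1as671 was not tested, and values without those 2 libraries are given where they matter.

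miR-132-3p was the leading member in every library, and its level separated the tissues. It stood at 5666, 5603 and 5470.1 CPM in CyrKO hippocampus and at 5503, 5533 and 6259.6 CPM in WT hippocampus. In cerebellum it stood at 2895.5, 2588 and 2822 CPM in CyrKOCdr1as671, at 3027, 3163 and 2653 CPM in Cdr1as671, at 3688, 2952 and 3501 CPM in CyrKO and at 2732, 2949 and 3214 CPM in WT. All 6 hippocampus libraries lay above all 12 cerebellum libraries on this scale, and the 4 cerebellum groups overlapped one another except that CyrKOCdr1as671 lay below CyrKO. With group means from 2769 to 5765 CPM, miR-132-3p ranked 34th to 48th of all miRNAs, while miR-212-3p, with the same seed, ranked 127th to 187th.

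miR-212-3p, the second guide of that seed, showed the wider tissue gap. Its level was 666, 655 and 646 CPM in CyrKO hippocampus and 659, 652 and 779 CPM in WT hippocampus. Its cerebellar levels were 167, 159.7 and 168 CPM in CyrKOCdr1as671, 186, 190.5 and 149 CPM in Cdr1as671, 235, 185 and 230.1 CPM in CyrKO and 179, 173 and 203 CPM in WT. The lowest hippocampus library was thus far above the highest cerebellum library, and within cerebellum only the order of CyrKOCdr1as671 below CyrKO and below WT was free of overlap.

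The 5p strands, the less abundant strands of both duplexes here, were scarcer. miR-212-5p was at 268, 270.4 and 252 CPM in CyrKO hippocampus and at 264, 246 and 306 CPM in WT hippocampus, with 60.1 to 79.0 CPM over the 12 cerebellum libraries. miR-132-5p was at 148.7, 149.6 and 149.8 CPM in CyrKO hippocampus and at 147.6, 148 and 111 CPM in WT hippocampus. In cerebellum miR-132-5p was at 81.3, 77.6 and 79.1 CPM in CyrKOCdr1as671, at 75.6, 89.0 and 78.2 CPM in Cdr1as671, at 49.4, 75.5 and 86.1 CPM in CyrKO and at 70.9, 70.9 and 53.8 CPM in WT. A single low library set apart 3 of these groups: library 3 of WT hippocampus, library 1 of CyrKO cerebellum and library 3 of WT cerebellum.

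miR-188-5p kept within a narrow range of levels and showed no common step between the tissues. It was at 151, 136 and 139 CPM in CyrKO hippocampus and at 136, 145 and 105 CPM in WT hippocampus. In cerebellum it was at 107, 105 and 104 CPM in CyrKOCdr1as671, at 105, 101 and 104 CPM in Cdr1as671, at 113, 128 and 115 CPM in CyrKO and at 123, 134 and 125 CPM in WT. CyrKO hippocampus lay above CyrKO cerebellum, whereas WT hippocampus and WT cerebellum overlapped. Within cerebellum the groups with the Cdr1as deletion were the lowest, both below every CyrKO and WT library, and they overlapped each other. The other strand of its hairpin, miR-188-3p, averaged 40.8 ± 2.01 CPM in CyrKO hippocampus and 34.5 ± 4.53 CPM in WT hippocampus, and its cerebellar group means ran from 20.7 to 24.4 CPM (SD, n = 3 each).

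**Figure D1:**
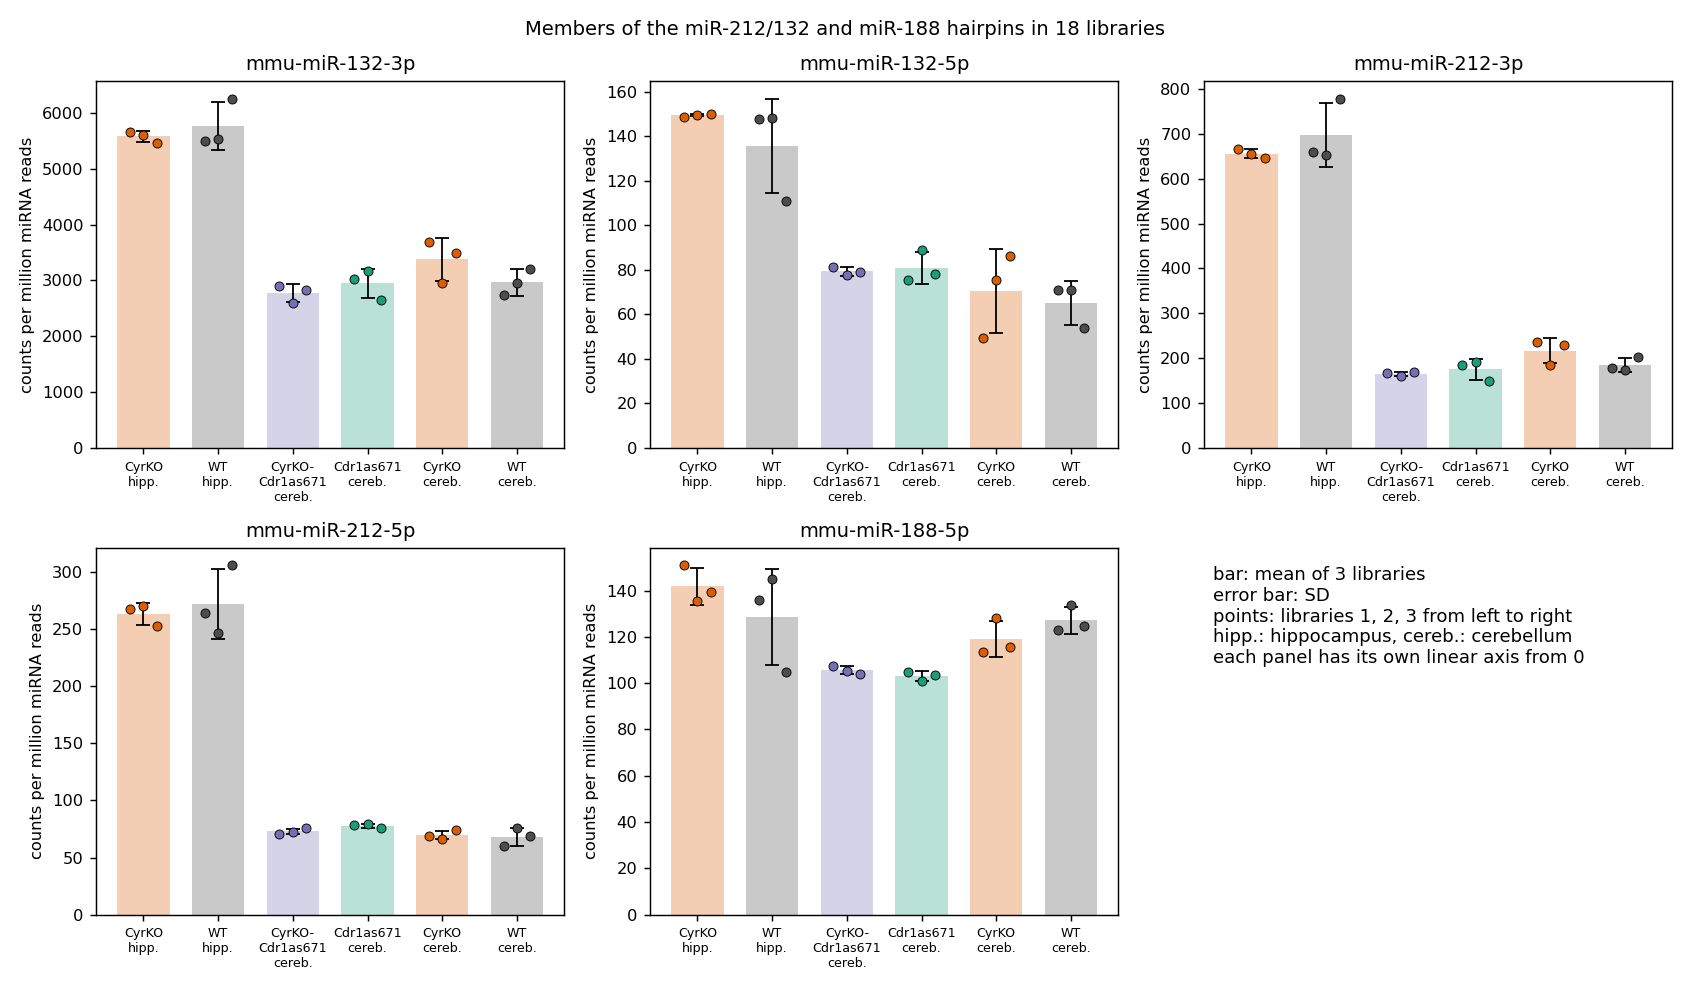
CPM (y axis, linear from 0) of the 5 members in the 6 groups (x axis); bars are means of 3 libraries, error bars SD, and points libraries 1 to 3 from left to right. The hippocampus groups stand above the cerebellum groups for the strands of miR-132 and miR-212, with miR-132-3p means of 5580 ± 100.2 CPM in CyrKO hippocampus and 3380 ± 382 CPM in CyrKO cerebellum, while the miR-188-5p libraries of WT hippocampus and WT cerebellum overlap.

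Hippocampus and cerebellum were compared within each genotype, with the 12 libraries of CyrKO and WT fitted together, to ask how far the region sets the level of these strands. The result depended on the scaling. The neuronal miRNAs miR-124-3p, miR-9-5p and miR-128-3p together took 242650 to 273040 CPM in hippocampus and 303070 to 367610 CPM in cerebellum, and their part in the shift was not tested. Markers of other cells separated the tissues too, in both genotypes. Oligodendrocyte miRNAs (miR-219a-2-3p and both strands of miR-338) summed to 8109 to 8665 CPM in CyrKO hippocampus against 5127 to 6403 CPM in CyrKO cerebellum, and to 7056 to 9145 CPM in WT hippocampus against 5386 to 6924 CPM in WT cerebellum. Erythroid miRNAs summed to 2584 to 3574 CPM over the hippocampus libraries, below all CyrKO and WT cerebellum libraries. miR-143-3p, of vessel smooth muscle, was the 1 strand matched by name from a list of 4 vessel strands. It stood at 2114 to 3661 CPM in CyrKO hippocampus against 1281 to 1470 CPM in CyrKO cerebellum. In WT it stood at 2043 to 2303 CPM in hippocampus and 1532 to 1674 CPM in cerebellum. The part of any of these markers in the tissue results was not tested. Scaling by library totals moved the median log2 change of all miRNAs to 0.68 in CyrKO and 0.58 in WT, against 0.10 and 0.03 with TMM, which sets the bulk of miRNAs near 0. Changes below are therefore from TMM, and are followed by those from library totals.

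The miR-212 strands were higher in hippocampus under either scaling. miR-212-3p was 2.03-fold higher in CyrKO (log2 1.02, SE 0.10, edgeR adjusted p = 1.89e-07) and 2.58-fold higher in WT (log2 1.37, SE 0.10, adjusted p = 5.5e-09), and 3.03-fold and 3.77-fold higher on library totals. miR-212-5p was 2.54-fold higher in CyrKO (log2 1.34, SE 0.11, adjusted p = 1.48e-08) and 2.73-fold higher in WT (log2 1.45, SE 0.11, adjusted p = 5.99e-09), and 3.78-fold and 3.99-fold higher on library totals. On CPM both strands of the hairpin separated the tissues without overlap in either genotype, and so did both miR-132 strands. The median of all miRNAs also lay higher in hippocampus on library totals, at log2 0.68 in CyrKO and 0.58 in WT. The share of all miRNAs without overlap was not counted, so the separation is not read as particular to these strands. With TMM 72.1% of all miRNAs passed between tissues in CyrKO and 70.0% in WT.

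The miR-132 strands showed a smaller gap. miR-132-3p was 1.33-fold higher in WT hippocampus (log2 0.41, SE 0.09, edgeR adjusted p = 0.000832) but did not pass in CyrKO (log2 0.15, 95% interval -0.05 to 0.34, adjusted p = 0.152). On library totals it passed in both, 1.65-fold higher in CyrKO and 1.95-fold higher in WT. Leaving out 3 libraries, named with the strand ratios, gave log2 0.22 in CyrKO with TMM (edgeR adjusted p = 0.009). These libraries were chosen after the members' values were seen, and in each miR-132-3p was the highest of its group. That value is therefore no support for a call in CyrKO. Against the median of all miRNAs the change was 0.05 in either scaling in CyrKO and 0.38 in WT, so the CyrKO value sat close to the bulk of miRNAs. miR-132-5p was 1.43-fold higher in CyrKO (log2 0.51, SE 0.18, edgeR adjusted p = 0.0173) and 1.41-fold higher in WT (log2 0.50, SE 0.18, adjusted p = 0.0208). Filters and single libraries ended these calls. With no low-count filter the adjusted p was 0.0583 in CyrKO and 0.0589 in WT, and with a mean of at least 10 CPM it was 0.0615 in CyrKO. The adjusted p in CyrKO was 0.116 without CyrKO cerebellum library 1 and 0.0581 without CyrKO hippocampus library 3, and in WT it was 0.124 without WT cerebellum library 3, 0.0716 without WT hippocampus library 1 and 0.0628 without WT hippocampus library 2.

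miR-188-5p had the opposite sign with TMM. It was lower in hippocampus, with log2 changes of -0.33 in CyrKO (SE 0.11, edgeR adjusted p = 0.0174) and -0.54 in WT (SE 0.11, adjusted p = 0.000525), yet on library totals the values were 0.25 (adjusted p = 0.0495) and 0.02 (adjusted p = 0.9). The CyrKO call with TMM was lost without CyrKO cerebellum library 2 (adjusted p = 0.099) or CyrKO hippocampus library 2 (adjusted p = 0.133). Relative to other miRNAs it stood 0.42 below the median of all in CyrKO and 0.57 below it in WT. Counting all members, 4 of 5 passed in CyrKO and 5 of 5 in WT, where 72.1% and 70.0% of the 746 tested miRNAs passed, so the members' share is near that of all miRNAs. Of all calls, 290 were higher and 248 lower in CyrKO and 280 and 242 in WT with TMM, against 419 and 126 in CyrKO and 402 and 126 in WT with library totals. The change in miR-132-3p and that in miR-212-3p are set side by side without scaling in the ratios that follow.

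**Figure D2:**
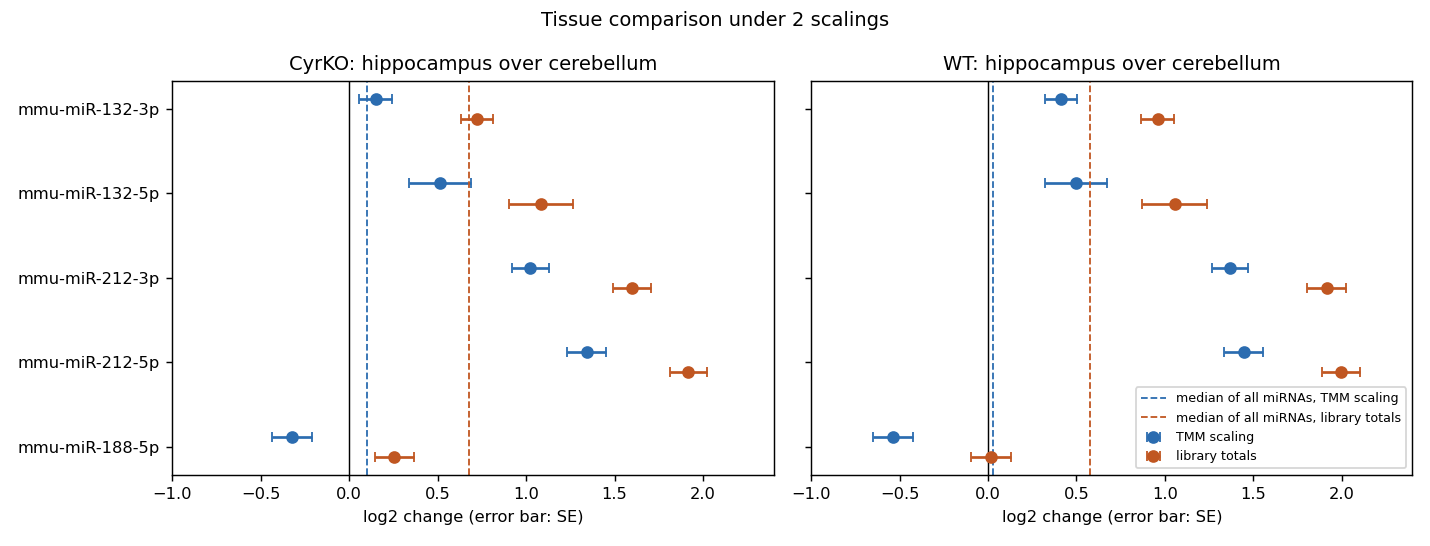
Log2 change of each member, hippocampus over cerebellum (x axis, error bars SE), in CyrKO and in WT under TMM scaling and under library totals; dashed lines mark the median of all tested miRNAs. The miR-212 strands lie at 1.02 to 1.45 with TMM, to the right of the medians of 0.10 and 0.03, and miR-188-5p lies to the left of the median in both scalings.

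A ratio of reads within a library needs no scaling between libraries. The efficiency with which each strand was captured cancels between libraries only where it was the same in each, and this was not tested. The ratio of miR-132-3p to miR-212-3p split the series by tissue. It was 8.51, 8.55 and 8.46 in CyrKO hippocampus and 8.35, 8.49 and 8.04 in WT hippocampus. In cerebellum it was 17.3, 16.2 and 16.8 in CyrKOCdr1as671, 16.3, 16.6 and 17.8 in Cdr1as671, 15.7, 15.96 and 15.2 in CyrKO and 15.3, 17.1 and 15.9 in WT. The 6 hippocampus libraries spanned 8.04 to 8.55 and the 12 cerebellum libraries 15.2 to 17.8, with no library between.

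Relative to its seed partner, miR-212-3p was thus more abundant in hippocampus in both genotypes. The log2 ratio differed by -0.88 between hippocampus and cerebellum in CyrKO (means 3.09 ± 0.01 and 3.96 ± 0.03) and by -0.95 in WT (3.05 ± 0.04 and 4.005 ± 0.08, SD, n = 3 each). Within a genotype the exact two-sided permutation test of 3 against 3 libraries gave p = 0.1 for each, the smallest it can give, with 0.36 after adjustment over the 18 ratio tests. With both genotypes together, and tissue labels permuted within each genotype, the exact test gave p = 0.005, the smallest that the 400 arrangements allow, and 0.015 adjusted over 3 ratios. This joint test was added after the ratios were seen, and its adjustment left out the 18 ratio tests. Since the tissues did not overlap in either genotype, its p had to be the smallest possible. It therefore adds nothing to the separation itself. Mutant and WT groups overlapped in this ratio, with fold differences of 0.97 to 1.05 and exact p of 0.2 to 0.6.

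As shares of all reads from the locus, miR-132-3p took 83.9% in hippocampus of either genotype and group means of 89.7% to 90.4% in cerebellum. miR-212-3p took 9.86% in CyrKO hippocampus and 10.1% in WT hippocampus, against 5.32% to 5.79% in the cerebellum groups. All 4 strands together made up 0.665% of miRNA reads in CyrKO hippocampus, 0.687% in WT hippocampus and 0.309% to 0.374% in the cerebellum groups. The assignment of reads to strands is not given in the sources used here, and miR-132-3p and miR-212-3p differ at only 5 positions, 4 of them in the last 9 bases.

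Strand ratios within a hairpin overlapped between the tissues over all libraries. miR-132-3p outnumbered miR-132-5p by 33.4 to 41.6 in 15 libraries, with 74.7 in CyrKO cerebellum library 1, 59.7 in WT cerebellum library 3 and 56.4 in WT hippocampus library 3. These are the libraries in which miR-132-5p was low, while miR-132-3p there was the highest of its group. Their RNA integrity numbers, 9 and 9.1, and their depths, 9272780 to 10186139 reads, lay within the range of the other libraries, and the source of the shift was not tested. Over both genotypes the mean log2 difference between hippocampus and cerebellum was -0.25 (exact p = 0.205, adjusted 0.205). Within CyrKO alone hippocampus lay below cerebellum without overlap, as did CyrKOCdr1as671 below WT in cerebellum, by -0.40 and -0.39 on the log2 scale, each at the smallest exact p of 0.1 (adjusted 0.36). Leaving out 1 library at a time gave -0.56 to -0.094 between tissues in CyrKO. It gave -0.51 to -0.20 for CyrKOCdr1as671 over WT, so the size of both differences hung on single libraries.

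miR-212-3p outnumbered miR-212-5p by 2.42 to 2.65 in hippocampus and by 1.96 to 3.41 in cerebellum. The mean log2 difference was -0.20 (exact p = 0.05, adjusted 0.075), which misses the threshold after adjustment. Within CyrKO alone hippocampus lay below cerebellum without overlap, by -0.31 on the log2 scale, at the smallest exact p of 0.1 (adjusted 0.36). In cerebellum the ratio averaged 2.26 ± 0.08 in CyrKOCdr1as671 and 2.25 ± 0.25 in Cdr1as671, against 3.10 ± 0.31 in CyrKO and 2.73 ± 0.39 in WT (SD, n = 3 each), and the comparisons with WT had exact p of 0.2 to 0.4.

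**Figure D3:**
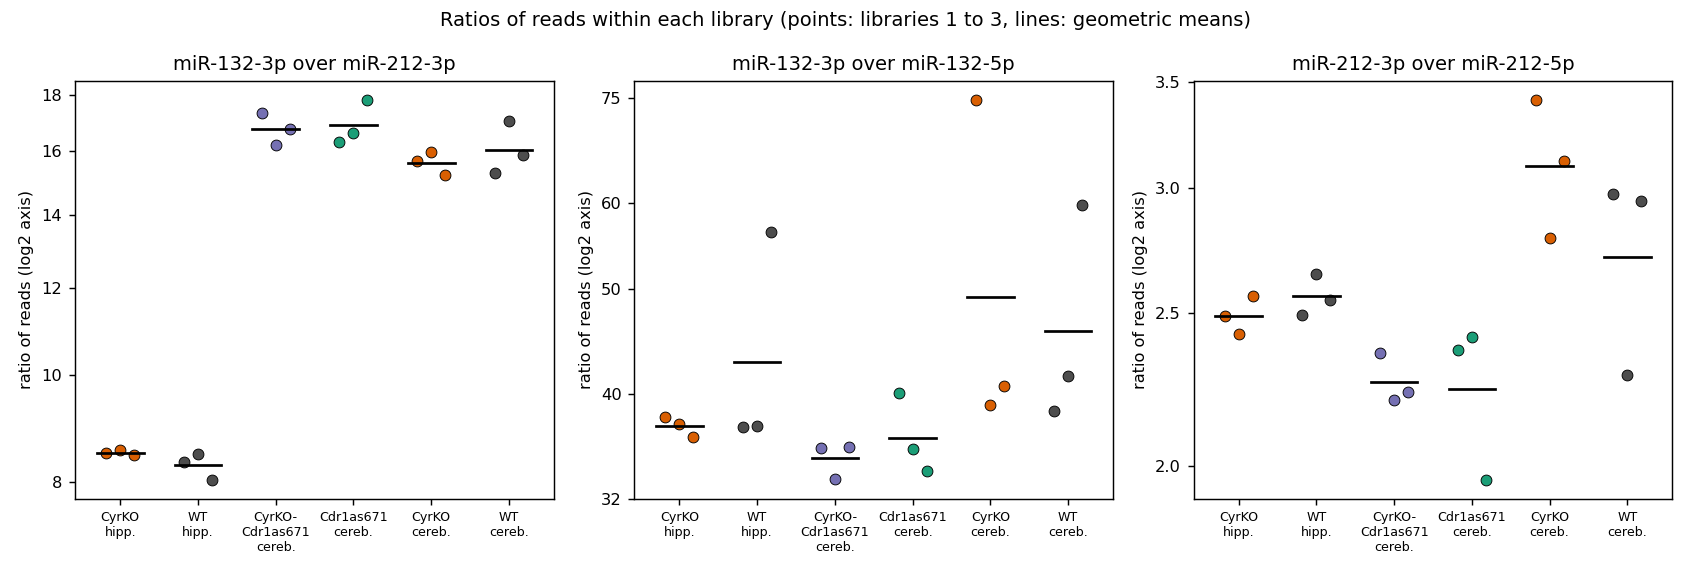
Ratios of reads within each library (y axis, log2 spacing) for miR-132-3p over miR-212-3p, miR-132-3p over miR-132-5p and miR-212-3p over miR-212-5p in the 6 groups; points are libraries 1 to 3 and lines geometric means. The first panel separates hippocampus, at 8.04 to 8.55, from cerebellum, at 15.2 to 17.8, and the second shows single libraries at 56.4, 59.7 and 74.7.

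The loss of Cyrano was tested in both tissues. In hippocampus none of the 5 members passed, with log2 changes for CyrKO over WT from -0.11 for miR-212-3p to 0.12 for miR-188-5p and edgeR adjusted p from 0.846 to 0.92. In cerebellum none passed either, with changes from -0.09 for miR-188-5p to 0.23 for miR-212-3p (95% interval -0.02 to 0.48) and an adjusted p of 0.999 for each. Of all miRNAs 0.57% passed in hippocampus, 4 of 702, and 0.898% in cerebellum, 6 of 668, while 27 and 16 had an unadjusted p under 0.05. Without WT hippocampus library 3 the hippocampus count was 7. DESeq2 called the same numbers of miRNAs, 4 and 6, and no member.

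The intervals bound how large an unseen change could be. For miR-132-3p the 95% interval of the log2 change was -0.23 to 0.09 in hippocampus and -0.03 to 0.41 in cerebellum, so in hippocampus a level under 0.855 of WT lay outside the interval. Cerebellar miR-132-3p averaged 3380 ± 382 CPM in CyrKO and 2965 ± 242 CPM in WT (SD, n = 3 each), and the libraries overlapped. In cerebellum the vessel miRNA miR-143-3p stood at 1281 to 1470 CPM in CyrKO and 1532 to 1674 CPM in WT. Its part in the result was not tested. The CyrKO effect itself was compared between tissues, and no member passed, against 0.402% of 746 miRNAs. The lowest p was that of miR-212-3p, with a log2 difference of -0.34 (SE 0.14, unadjusted p = 0.0299, edgeR adjusted p = 0.942).

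The Cdr1as deletion was tested in cerebellum alone. In Cdr1as671 none of the 5 members passed, where 2.26% of 665 miRNAs did, 15 in number, with 137 at an unadjusted p under 0.05. miR-188-5p came closest. It averaged 103 ± 2.07 CPM in Cdr1as671 and 127 ± 5.86 CPM in WT (SD, n = 3 each), and all 3 mutant libraries lay below all 3 WT libraries, with a log2 change of -0.34 (SE 0.11, edgeR adjusted p = 0.119). miR-132-5p and miR-212-5p did not overlap with WT either, in the other direction, and the share of all miRNAs without overlap was not counted. Without Cdr1as671 library 3 the miR-188-5p value was -0.37 and passed (edgeR adjusted p = 0.0325). Without Cdr1as671 libraries 1 and 2, those low in erythroid miRNAs, the value was -0.23, where library 3 alone stood for the group and was assumed to vary like the other groups. Without library 3 the calls among all miRNAs numbered 112, against 15 with it. Other markers also separated these groups without overlap: the neuronal miRNAs summed to 303470 to 325710 CPM in Cdr1as671 and 335100 to 367610 CPM in WT, the oligodendrocyte miRNAs to 6993 to 7878 CPM in Cdr1as671 and 5386 to 6924 CPM in WT, and miR-143-3p, a miRNA of vessel smooth muscle, stood at 1952 to 2248 CPM in Cdr1as671 and 1532 to 1674 CPM in WT. Their part in the result was not tested.

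The other strands in Cdr1as671 gave log2 changes of -0.05 for miR-132-3p (95% interval -0.28 to 0.19), -0.12 for miR-212-3p, 0.15 for miR-212-5p and 0.27 for miR-132-5p, with edgeR adjusted p from 0.254 to 0.842. DESeq2 called 27 miRNAs in this comparison and none of the members. In the authors' deposited table miR-188-5p had a log2 change of -0.33 and an adjusted p of 0.092, also short of the threshold.

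In the double mutant CyrKOCdr1as671 none of the 5 members passed against WT, where 2.57% of 662 miRNAs did, 17 in number, or 35 with the replicate number as a block. miR-132-5p had the lowest p. It averaged 79.3 ± 1.88 CPM in CyrKOCdr1as671 and 65.2 ± 9.86 CPM in WT (SD, n = 3 each), without overlap, with a log2 change of 0.36 (SE 0.12, edgeR adjusted p = 0.142). It passed when no low-count filter was applied (adjusted p = 0.0262), and without WT cerebellum library 3, where this strand was low, the change was 0.25 (adjusted p = 0.309). miR-188-5p averaged 106 ± 1.70 CPM in CyrKOCdr1as671 and 127 ± 5.86 CPM in WT, with a log2 change of -0.19 (adjusted p = 0.22). miR-188-5p and miR-212-3p did not overlap with WT either, and the share of all miRNAs without overlap was not counted. The guide miR-132-3p lay at -0.02 (95% interval -0.18 to 0.15). Here too markers separated the groups without overlap. The neuronal miRNAs summed to 303070 to 329740 CPM in CyrKOCdr1as671 and 335100 to 367610 CPM in WT, the cerebellar markers to 10409 to 10714 CPM in CyrKOCdr1as671 and 11669 to 12115 CPM in WT, and the choroid plexus miRNAs to 7283 to 8438 CPM in CyrKOCdr1as671 and 8479 to 9874 CPM in WT. The vessel miRNA miR-143-3p stood at 1792 to 2205 CPM in CyrKOCdr1as671 and 1532 to 1674 CPM in WT, and the part of these markers in the result was not tested.

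The double mutant was also set against each single mutant in a fit of the 12 cerebellum libraries. Against CyrKO none of the 5 members passed, where 2.33% of 688 miRNAs did, but both guides of the shared seed lay lower. miR-212-3p averaged 165 ± 4.65 CPM in CyrKOCdr1as671 and 217 ± 27.6 CPM in CyrKO (SD, n = 3 each), with a log2 change of -0.34 (SE 0.11, edgeR adjusted p = 0.116). miR-132-3p averaged 2769 ± 161 CPM in CyrKOCdr1as671 and 3380 ± 382 CPM in CyrKO, with a log2 change of -0.24 (SE 0.10, adjusted p = 0.189). For both strands the groups did not overlap, and the same held for miR-188-5p. The share of all miRNAs without overlap was not counted, and 139 of 688 had an unadjusted p under 0.05. The 5p strands of the miR-132 and miR-212 hairpins had values of 0.22 and 0.11 in the other direction. Markers separated these groups as well: erythroid miRNAs summed to 5405 to 16004 CPM in CyrKOCdr1as671 and 16566 to 27991 CPM in CyrKO, choroid plexus miRNAs to 7283 to 8438 CPM in CyrKOCdr1as671 and 8447 to 10387 CPM in CyrKO, and cerebellar markers to 10409 to 10714 CPM in CyrKOCdr1as671 and 11122 to 13200.0 CPM in CyrKO. The vessel miRNA miR-143-3p stood at 1792 to 2205 CPM in CyrKOCdr1as671 and 1281 to 1470 CPM in CyrKO, the hippocampal markers at 12695 to 13573 CPM in CyrKOCdr1as671 and 10689 to 12534 CPM in CyrKO, and the part of these markers was not tested. Without CyrKO cerebellum library 1 and WT cerebellum library 3, named with the strand ratios, miR-212-3p was at -0.26 (edgeR adjusted p = 0.343). miR-132-3p was then at -0.15 (edgeR adjusted p = 0.472).

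Against Cdr1as671 none of the 5 members passed, where 0.727% of 688 miRNAs did. Their log2 changes lay between 0.02 and 0.14. Those of the miR-132 and miR-212 strands turned to -0.03 to -0.09 on library totals, which moved the median of all miRNAs by -0.11. The cerebellar markers summed to 10409 to 10714 CPM in CyrKOCdr1as671 and 11586 to 11885 CPM in Cdr1as671. Their part in the result was not tested. The interaction, the change with both mutations beyond the sum of the single ones, reached the threshold for 0.145% of miRNAs, 1 of 688 (19 without Cdr1as671 library 3), and for none of the members, whose adjusted p ran from 0.863 to 0.978. Among all miRNAs called in the double mutant against WT, 13 were higher and 4 lower with TMM, and 10 higher and 21 lower with library totals. Against CyrKO the split was 7 and 9 with TMM and 7 and 18 with library totals, and against Cdr1as671 it was 5 and 0 and then 5 and 3. At an unadjusted p under 0.05 the members numbered 1 of 5 in Cdr1as671 against WT, beside 137 of all 665 miRNAs. They numbered 2 in the double mutant against WT, beside 127 of 662, and 2 in the double mutant against CyrKO, beside 139 of 688. For the CyrKO effect between tissues the count was 1, beside 35 of 746. No member did so in the other mutant comparisons, and DESeq2 called no member in any mutant comparison. The CyrKO, Cdr1as671 and CyrKOCdr1as671 comparisons share the 3 WT cerebellum libraries, so a value set by those libraries enters each of them.

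**Figure D4:**
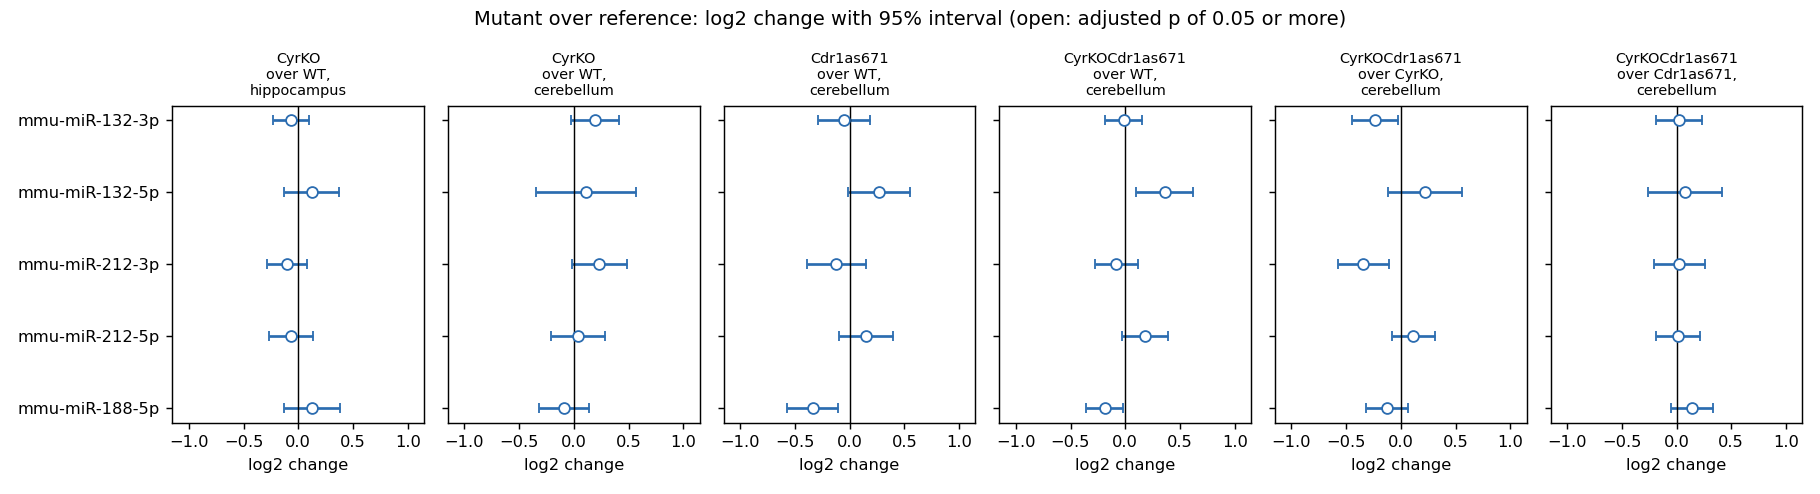
Log2 changes of the 5 members (x axis, points with 95% intervals) in the 6 comparisons of a mutant group with its control or single-mutant group; open points have an adjusted p of 0.05 or more. Every point is open, and the points farthest from 0 are miR-132-5p at 0.36, for CyrKOCdr1as671 over WT, and miR-212-3p at -0.34, for CyrKOCdr1as671 over CyrKO.

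The members were also followed from library to library, as a description over libraries that share tissue and depth. Over the 18 libraries, and among 441 miRNAs with a mean of at least 10 CPM, the miRNA whose log2(CPM + 1) tracked miR-132-3p most closely was miR-212-3p (Pearson r = 0.993). The next were miR-1839-3p (0.987), miR-434-3p (0.986), miR-668-3p (0.986) and miR-667-3p (0.981), the last 3 from the imprinted Dlk1-Dio3 region. Much of such likeness reflects the step between tissues, so the same r was taken over the 12 cerebellum libraries. There miR-212-3p kept r = 0.95 (Spearman rank correlation 0.944, and r = 0.868 without the 2 libraries farthest from the median), while the other 4 had r from 0.701 to 0.846.

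The 5p strands did not follow their 3p strands within cerebellum. miR-132-5p and miR-132-3p had r = -0.428 (Spearman rank correlation -0.147, and r = -0.302 without the 2 farthest libraries), and miR-212-5p and miR-212-3p had r = -0.159 (Spearman rank correlation -0.154, r = -0.19). Between the 5p strands, miR-132-5p and miR-212-5p, r was 0.412 (Spearman rank correlation 0.58, r = 0.48). miR-188-5p had r = 0.171 with miR-132-3p (Spearman rank correlation 0.231, r = 0.22).

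Other miRNAs with reported roles at synapses or in activity-dependent expression were counted beside the members, from a list of 23. In the mutant comparisons 1 of the 23 passed, where 2.57% of all miRNAs passed for CyrKOCdr1as671 over WT and 2.33% over CyrKO. It was miR-379-5p, a miRNA of the Dlk1-Dio3 region. It rose in CyrKOCdr1as671, at 514 ± 18.8 CPM, against 375 ± 59.2 CPM in WT (SD, n = 3 each, log2 0.54, edgeR adjusted p = 0.0187), and against 370.3 ± 29.8 CPM in CyrKO (log2 0.52, adjusted p = 0.0104). Between tissues 7 of 23 were higher and 12 lower in CyrKO hippocampus and 7 higher and 10 lower in WT hippocampus, with median log2 changes of -0.42 and -0.21 beside 0.10 and 0.03 for all tested. That is 82.6% of the list in CyrKO and 73.9% in WT, beside 72.1% and 70.0% of all miRNAs. On CPM without TMM 14 of the 23 were higher in hippocampus in either genotype, so the balance of the list turned with the scaling. miR-137-3p, a regulator of neuronal maturation, had log2 changes of 3.44 in CyrKO and 3.56 in WT. miR-96-5p, of the miR-183 cluster of sensory cells, had -5.44 in CyrKO and -5.45 in WT, with 2.70 ± 0.52 CPM in CyrKO hippocampus against 79.0 ± 19.7 CPM in CyrKO cerebellum (SD, n = 3 each). Beside these the miR-212 strands, at 1.02 to 1.45, lay near miR-138-5p, a regulator of spine size, at 1.47 in CyrKO and 1.24 in WT.

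miR-188 sits in a run of X-linked hairpins, and 9 strands of that list of 11, miR-188-3p included, were in the files. None of the 9 passed in any mutant comparison. Between tissues 1 was higher and 6 lower in CyrKO hippocampus, and 0 higher and 6 lower in WT hippocampus, with median log2 changes of -0.38 and -0.43, beside the -0.33 and -0.54 of miR-188-5p. That is 77.8% of the 9 in CyrKO and 66.7% in WT, near the 72.1% and 70.0% of all miRNAs. On CPM without TMM the mean was higher in hippocampus for 8 of the 9, with medians of 0.21 and 0.12, so for this run, as for miR-188-5p, the direction followed the scaling. miR-532-3p had the largest TMM change, -0.77 in CyrKO (edgeR adjusted p = 9.05e-07) and -0.66 in WT (adjusted p = 5.45e-06), and also stood lower on CPM. The single strand higher in CyrKO was miR-188-3p, at 0.40 (SE 0.15, edgeR adjusted p = 0.0251), with -0.06 (SE 0.15, adjusted p = 0.753) in WT. Without CyrKO cerebellum library 1 the CyrKO value was 0.18 (adjusted p = 0.23).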

How the data were processed

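Small RNAs of 18 to 32 nt were sequenced from 5 ug of total RNA per library, per the labels' protocols. The submitters' processing notes name cutadapt and DESeq2 1.10; how reads were assigned to miRNAs, and on which build, is not given in the sources used here. Raw counts per miRNA and library, deposited in 4 tables, were the values tested. The second set of columns was read as signal per the file headers, the count divided by a size factor. The log2 fold changes and their errors, and the p-value columns, are from the authors' test per the file headers and served as an alternative. WT cerebellum counts were identical in 3 tables and entered once.

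Counts were analysed with edgeR 4.0.16 in R 4.3.3: filterByExpr (minimum count 10, total 15), TMM, robust quasi-likelihood F-test, Benjamini-Hochberg adjustment over all tested miRNAs and a threshold of 0.05. Each mutant was fitted with WT of its tissue (6 libraries); other contrasts used the 12 cerebellum libraries or the 12 WT and CyrKO libraries. Standard errors are the log2 change over the square root of F. CPM used library miRNA totals without TMM. Ratios were tested on the log2 scale by exact two-sided permutation. The procedure was tested on simulated counts. Alternatives were DESeq2 1.42.0, other scalings, filters, fits and sets of libraries.

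Members, lists and alternatives were chosen with earlier results of these data known. Named beyond the members were the other miR-188 strand, up to 4 list members passing per direction or that of lowest p, and the 5 miRNAs closest to miR-132-3p. A replicate number was taken as a possible pairing where the deviations of all same-numbered libraries correlated above 0.1. This held for CyrKO with WT cerebellum (r 0.127 to 0.534) and CyrKOCdr1as671 with WT (0.463 to 0.659). CyrKO cerebellum library 3 correlated more with WT library 2 (0.389) than with its own number (0.127). The main fits used group only, and the replicate block was an alternative. Neither Cyrano nor Cdr1as was measured, so genotypes were not checked.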

Additional observations from a re-analysis of the deposited data

How the results depend on the processing

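The mutant results kept to 0 members called except in CyrKOCdr1as671 over WT with no low-count filter (1) and in Cdr1as671 over WT, where leaving out single libraries gave 0 to 1. The replicate block changed no member call; with it miR-132-5p in CyrKOCdr1as671 over WT had a log2 change of 0.37 and miR-188-5p in Cdr1as671 over WT -0.34. Some signs changed. Library totals gave -0.090 for miR-132-3p, -0.029 for miR-132-5p, -0.085 for miR-212-3p and -0.092 for miR-212-5p in CyrKOCdr1as671 over Cdr1as671, 0.25 for miR-188-5p between tissues in CyrKO (adjusted p = 0.0495, against -0.33 with TMM), and 0.017 for miR-188-5p (against -0.54) and 0.50 for miR-188-3p in WT. Leaving out the 3 libraries low in miR-132-5p removed from each fit only those it held. Without WT hippocampus library 3 the values were 0.011 for miR-132-3p and 0.039 for miR-212-5p in CyrKO over WT hippocampus. Without WT cerebellum library 3 miR-132-3p was at 0.016 in Cdr1as671 over WT and 0.051 in CyrKOCdr1as671 over WT. These values recur in the ranges without single libraries below. Without all 3 libraries miR-188-3p was at 0.042 between WT tissues. A fit of all 18 libraries gave 0.021 for miR-132-3p in Cdr1as671 over WT and 0.025 in CyrKOCdr1as671 over WT, and leaving out Cdr1as671 libraries 1 and 2 gave -0.027 for miR-212-5p in CyrKOCdr1as671 over Cdr1as671, a group then of library 3 alone. Leaving out 1 library at a time gave, for CyrKO over WT, -0.024 to 0.33 for miR-132-5p and -0.040 to 0.11 for miR-212-5p in cerebellum, and -0.095 to 0.011 for miR-132-3p and -0.13 to 0.039 for miR-212-5p in hippocampus. It gave -0.083 to 0.016 for miR-132-3p in Cdr1as671 over WT, -0.052 to 0.051 in CyrKOCdr1as671 over WT, -0.013 to 0.085 for miR-212-3p in CyrKOCdr1as671 over Cdr1as671, and -0.15 to 0.093 for miR-188-3p between WT tissues. Over all miRNAs the counts of calls moved more: leaving out single libraries gave 0 to 112 in Cdr1as671 over WT, 6 to 58 in CyrKOCdr1as671 over WT, 2 to 26 over CyrKO, 5 to 59 over Cdr1as671 and 0 to 19 for the interaction. The other settings gave 0 to 79, 6 to 61, 2 to 34 and 5 to 8 in the same order, with DESeq2 at 27, 44, 34 and 5, and 0 to 4 for the interaction. The cause was not tested for any of these. The smallest member count was 503 reads, and groups of 3 libraries limit the precision.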
